A study of Mus musculus with 12 samples.

Results

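The nuclear-encoded genes of the mitochondrial respiratory chain were followed in mouse embryonic stem (ES) cells grown with or without serum. They are all genes whose name on the array starts with Nduf, with Sdh followed by a to d, with Uqcr, with Cox followed by 4 to 8, or with Atp5, and whose probe was well above background on at least 2 of the 12 arrays. The array held 113 such probes for 82 genes, and all 82 genes passed, against 21394 genes that passed in all. By textbook role 36 belong to complex I, 4 to complex II, 7 to complex III, 18 to complex IV and 15 to complex V. The other 2 carry such a name but are no subunits: Cox4nb (also Emc8), a subunit of the endoplasmic reticulum membrane complex, and Atp5s (also Dmac2l). The name rule also takes in Ndufaf1, an assembly factor of complex I, and Cox7a2l, which acts in supercomplex formation. A further 11 genes whose present RefSeq symbol has such a form, among them Ndufv3, Uqcr10 and Cox7b2, were on the array under clone names and fall outside the rule. Genes of the mitochondrial genome were not among the named genes of the array, and neither was Ndufa4l2.

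The series hybridised 12 one-colour arrays to total RNA of 2 ES cell lines that carry a Stella-GFP or a Dazl-GFP reporter. Both lines grew on gamma-irradiated mouse embryonic fibroblasts, with leukemia inhibitory factor (LIF) in every group. The medium was DMEM with 15% fetal bovine serum (FBS) or serum-free B27N2, and cells were taken at days 0, 3 and 10, giving 6 groups with 1 array of each line per group. The 2i treatment named in the protocol is the MEK inhibitor PD0325901 (1 µM) with the GSK3 beta inhibitor Kenpaullone (5 µM). The labels call the serum-free arm the 2i condition. They do not tell whether the FBS cells received inhibitors, or what the serum-free cells of day 0 had received. Each group therefore holds 2 arrays that differ in cell line, and p-values measure the spread between these arrays with the line taken out. Nothing in the labels tells whether further cultures stand behind an array.

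The respiratory chain passes electrons from NADH (complex I) and succinate (complex II) through complex III to complex IV, which reduces oxygen, and the proton gradient that complexes I, III and IV build drives ATP synthase (complex V). Most subunits are encoded in the nucleus and imported, and nuclear respiratory factors, among them NRF1 and the ETS protein GABP, are known activators of their transcription. Several subunits of complex IV come as isoforms, with versions typical of heart and muscle, lung or testis beside the general one. Pluripotent cells are known for relying strongly on glycolysis while keeping a working respiratory chain.

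Levels are given as log2 of the processed intensity minus the log2 75th percentile of the same array, so that 0 is the 75th percentile. On the 12 arrays 64% to 74.4% of spots were well above background and the 75th percentile was 454 to 947 intensity units. No member spot was saturated or marked as irregular. The arrays lay on 3 slides: slide 1 held all FBS arrays of Dazl-GFP and the FBS day 0 array of Stella-GFP, slide 2 the other FBS arrays of Stella-GFP and the serum-free arrays of Dazl-GFP from days 0 and 3, and slide 3 the remaining serum-free arrays. No slide held both media at day 0 or at day 10. The 9 ES cell markers on the array, Pou5f1 and Nanog among them, were above background in every group, with summed linear levels (1 being the 75th percentile) of 418 to 728. Fibroblast markers, which feeder cells express, summed to 110 to 178 on the FBS day 3 arrays and 46.3 to 56.6 on the serum-free day 3 arrays. On all other arrays they summed to 65.1 to 118. At day 3 they were called lower in serum-free medium for 16 of 20 genes and higher for 1.

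Across the arrays most respiratory chain genes kept a narrow range. The median standard deviation of a member over the 12 arrays was 0.23 (0.09 for Uqcrfs1 to 0.88 for Cox8c), against 0.44 over all genes tested. It was below 0.25 for 48 of 82 members, or 58.5%, and for 14.6% of all genes. The members were mostly bright: only Cox4i2, Cox6a2, Cox8b and Cox8c had a negative median level over the arrays. All genes were not matched to the members in brightness, and the part of brightness in this contrast was not tested. The contrast therefore does not show a steadiness particular to the respiratory chain. Uqcrfs1, the Rieske iron-sulfur protein of complex III, had the steadiest level: on FBS it was 4.70, 4.56 and 4.63 in Stella-GFP and 4.60, 4.84 and 4.60 in Dazl-GFP at days 0, 3 and 10. In serum-free medium it was 4.66, 4.65 and 4.79 in Stella-GFP and 4.53, 4.55 and 4.70 in Dazl-GFP. Its 12 levels lay between 4.53 and 4.84. The widest ranges, past 1 log2 unit, included the isoform genes of complex IV that are typical of other tissues: Cox8c (3.38 from lowest to highest array), Cox6b2 (2.65), Cox7a1 (1.73), Cox6a2 (1.45), Cox8b (1.36) and Cox4i2 (1.26). Such ranges were not particular to these isoforms. General subunits also passed 1 log2 unit, among them Cox6b1 (1.81), Ndufs3 (1.79) and Ndufb3 (1.32). Cox8b, the muscle and brown fat isoform, was above background on 3 arrays, so its range is largely that of background.

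**Figure D1:**
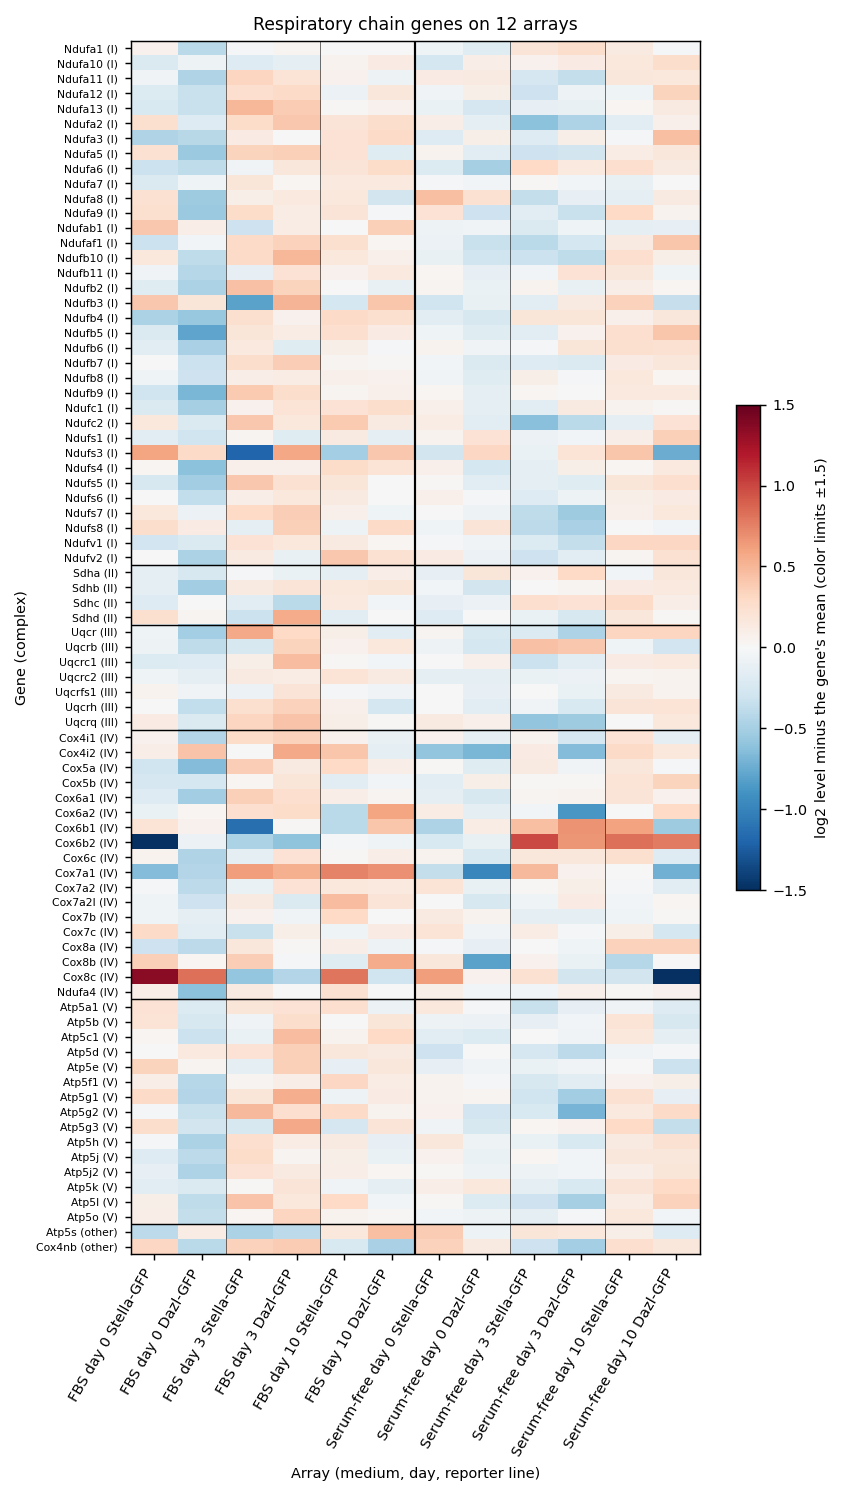
Deviation of 81 of the 82 genes, each from its own mean over the 12 arrays (log2, color limits ±1.5), with genes in rows by complex and arrays in columns by medium, day and reporter line. Most rows stay pale, with member medians per array between -0.33 on the FBS day 0 array of Dazl-GFP and 0.19 on the FBS day 3 array of Dazl-GFP, while Cox8c, Cox6b2, Cox7a1, Cox6b1 and Ndufs3 show the strongest colors.

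In FBS, 69 of the 82 respiratory chain genes had a higher fitted level at day 3 than at day 0, while the share called was close to that of all genes. A gene was called when its adjusted limma p (Benjamini-Hochberg, 21394 genes) was below 0.05. Between days 0 and 3, 9 members rose and 1 fell, 12.2% of the 82, against 11.9% of all genes called (6.65% higher and 5.23% lower). The median change was 0.32 over the members and 0.10 over all genes, and 84.1% of the members were above 0 (57% of all genes). Under the other scalings (quantile, normexp background correction and the authors' table) the member median stayed positive at 0.12 to 0.36, but under normexp it did not exceed the median of all genes, which was 0.30 there. All 7 complex III genes, 14 of 15 complex V genes and 31 of 36 complex I genes were above 0, with medians of 0.43, 0.30 and 0.35, and complex II had a median of 0.05 over 4 genes. By line the complex V median was -0.03 in Stella-GFP and 0.54 in Dazl-GFP, and that of complex III 0.20 and 0.65. The FBS day 0 array of Dazl-GFP had the lowest member median of all arrays (-0.33), and without it the median change of all members was 0.19.

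In complex I the calls fell on accessory subunits: Ndufb9 rose by 0.82 (SE 0.16, adjusted p = 0.0213), Ndufb2 and Ndufa13 by 0.72 each, Ndufs5 by 0.70 and Ndufb4 by 0.67, and none of the 7 catalytic core genes was called. Ndufb9 was at 5.86 and 5.47 in Stella-GFP and Dazl-GFP at day 0 and at 6.55 and 6.42 at day 3. Both day 3 arrays were above both day 0 arrays. In complex III Uqcr (now Uqcr11), a small accessory subunit, rose by 0.72. In complex IV Cox5a, a general subunit of the enzyme, was at 6.95 and 6.59 at day 0 and at 7.61 and 7.38 at day 3, a rise of 0.73 (SE 0.14, adjusted p = 0.0196). Cox6a1, the general isoform of subunit VIa, rose by 0.66. Cox7a1, the heart and muscle isoform of subunit VIIa, rose by 1.12. The called genes showed the same direction in both lines. In Dazl-GFP, whose FBS arrays shared slide 1, Cox5a was 0.79 and Ndufb9 0.95 higher at day 3, and over all members the median was 0.53 in Dazl-GFP and 0.17 in Stella-GFP. With the slide as a block none of the 10 calls remained, with adjusted p of 0.0749 to 0.178. Without the replicate block, which is the cell line, 4 remained. Leaving out single arrays gave 0 calls without either FBS day 3 array, 2 without the FBS day 0 array of Dazl-GFP, 4 without either serum-free day 3 array and 5 without either array of the FBS day 10 or the serum-free day 0 group. The fibroblast markers summed to 85.5 to 95.2 at day 0 and 110 to 178 at day 3 in FBS, with 1 of 20 called higher and none lower (median 0.55). Macrophage markers were called higher for 2 of 12 and lower for none (median 0.71), and the part of both lists in these rises was not tested.

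At day 10 in FBS, 4 members were above day 0 and none below, 4.88% of the members against 12.9% of all genes called (7.56% higher). They were Cox7a1 (1.25, SE 0.25, adjusted p = 0.0179), Ndufb4 (0.79, SE 0.14), Ndufa3 (0.68, SE 0.18, adjusted p = 0.0491) and Cox5a (0.67, SE 0.14). Ndufb4 and Ndufa3 are accessory subunits of complex I. Ndufb4 stood at 4.66 and 4.56 at day 0, at 5.37 and 5.20 at day 3 and at 5.42 and 5.37 at day 10. Its day 3 and day 10 arrays overlapped and all lay above day 0. A second probe of Ndufa3 gave -0.27 (adjusted p = 0.399), so the call rests on 1 of its probes, and a second probe of Cox5a gave 1.42. The member median was 0.26, and 0.23 to 0.32 under the other scalings, while the median of all genes was -0.03. By line it was 0.15 in Stella-GFP and 0.36 in Dazl-GFP, and without the FBS day 0 array of Dazl-GFP it was 0.12. Days 3 and 10 were both set against the same FBS day 0 arrays, so their values are not independent of each other. Without either day 10 array no member was called, and with the slide as a block none was.

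**Figure D2:**
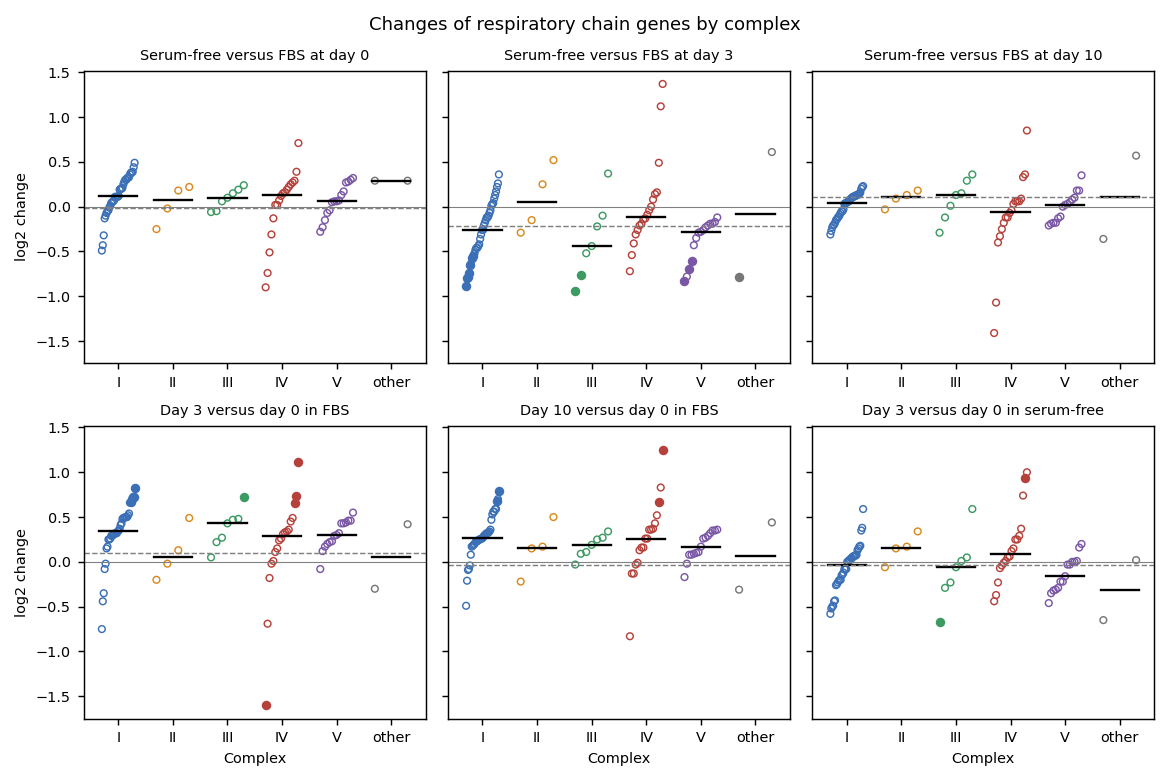
log2 change of each gene in 6 comparisons, by complex, with called genes filled, the median of each complex as a black bar and the median of all genes tested as a dashed line. In the serum-free versus FBS comparison at day 3 all 15 complex V genes lie below 0, as do 13139 of all 21394 genes tested. Under quantile normalization 9 of the 15 leave that side. In the day 3 versus day 0 comparison in FBS most genes of complexes I, III and V lie above 0.

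At day 3, 13 members were lower in serum-free medium than in FBS and none was higher. That is 15.9% of the members, against 22.5% of all genes called in either direction and 13.6% called lower. The member median was -0.21 and so was the median of all genes. Without the FBS day 3 array of Stella-GFP the member median was -0.35, and under quantile normalization the member median turned to 0.10 with 2 members called higher and 5 lower. Fewer cells of a type and less RNA per cell cannot be told apart in these bulk samples. In the same comparison 16 of 20 fibroblast markers were called lower (median -1.99, Col1a1 -2.52 and Vim -1.70), macrophage markers were lower for 8 of 12 and higher for 1, and primitive endoderm markers were higher for 8 of 13. The part of these cells in the differences of respiratory chain genes was not tested.

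In complex I the called genes were Ndufs7, a core subunit that holds an iron-sulfur cluster near the quinone site, the accessory subunits Ndufa2, Ndufa11, Ndufa13, Ndufb10 and Ndufc2, and the assembly factor Ndufaf1. Ndufs7 was at 4.69 and 4.76 in FBS (Stella-GFP and Dazl-GFP) and at 4.01 and 3.85 in serum-free medium, a difference of -0.79 (SE 0.16, adjusted p = 0.0140). The groups did not overlap. Ndufa2 differed by -0.88, Ndufc2 by -0.80, Ndufb10 by -0.74, Ndufaf1 by -0.65, Ndufa11 by -0.57 and Ndufa13 by -0.55. A second probe of Ndufa11 also gave -0.57.

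In complex III Uqcrq and Uqcr, small accessory subunits, were lower. Uqcrq was at 6.63 and 6.74 in FBS and at 5.71 and 5.78 in serum-free medium, a difference of -0.94 (SE 0.17, adjusted p = 0.0111). Its other probe gave -0.21 (adjusted p = 0.313). Uqcr was at 5.99 and 5.72 against 5.22 and 4.96 (-0.76, SE 0.16). Not every complex III gene had a negative value: Uqcrb, another small subunit, was at 3.95 and 4.52 in FBS and at 4.63 and 4.59 in serum-free medium (0.37, adjusted p = 0.257). Uqcrc1, a core protein, differed by -0.52 with an adjusted p of 0.053. In complex V Atp5g2, 1 of the genes for the proton-carrying c subunit, was at 6.45 and 6.21 in FBS and at 5.73 and 5.26 in serum-free medium (-0.83, SE 0.18, adjusted p = 0.0188). Atp5l, a membrane subunit, differed by -0.69 and Atp5d, of the central stalk, by -0.61. All 15 complex V genes lay below 0 (-0.83 to -0.12), as they did with normexp and in the authors' table, but under quantile normalization 9 of the 15 were above 0. Below 0 were also 63 of the 82 members and 13139 of all 21394 genes. The complex V median was -0.28, against -0.21 over all genes, and all genes share the same arrays. No gene of complex II or complex IV was called.

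Cox4nb, the member of the endoplasmic reticulum complex, was also lower (-0.78, SE 0.20, adjusted p = 0.0305), while its other probe gave 0.27. Of the 13 calls, 5 remained under quantile normalization (Cox4nb, Ndufa11, Ndufa2, Ndufs7 and Uqcrq) and 3 in the authors' table. With the slide as a block the same 13 genes kept values of -1.08 to -0.42, but none was called (adjusted p 0.0663 to 0.348), and the block called Cox6b1 higher. Slide 2 held 1 day 3 array of each medium, from different lines, and the member median between them was -0.22. Without the FBS day 3 array of Dazl-GFP or either serum-free day 3 array no member was called, and without the FBS day 3 array of Stella-GFP 1 was. Without an array of another group the count was 21 (either FBS day 0 array), 5 (either FBS day 10 array) or 6 (either serum-free day 0 array). In simulated data of this design 11 of 100 genes with a 2-fold change were called at day 3, and 83 of 100 with a 4-fold change. All other genes of the 21394 were left unchanged there, while the real comparison called 4813, so the adjustment was stricter in the simulation. These shares therefore do not give the power of the real test, whose 13 calls were all below 2-fold. How many changes it missed is not known.

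**Figure D3:**
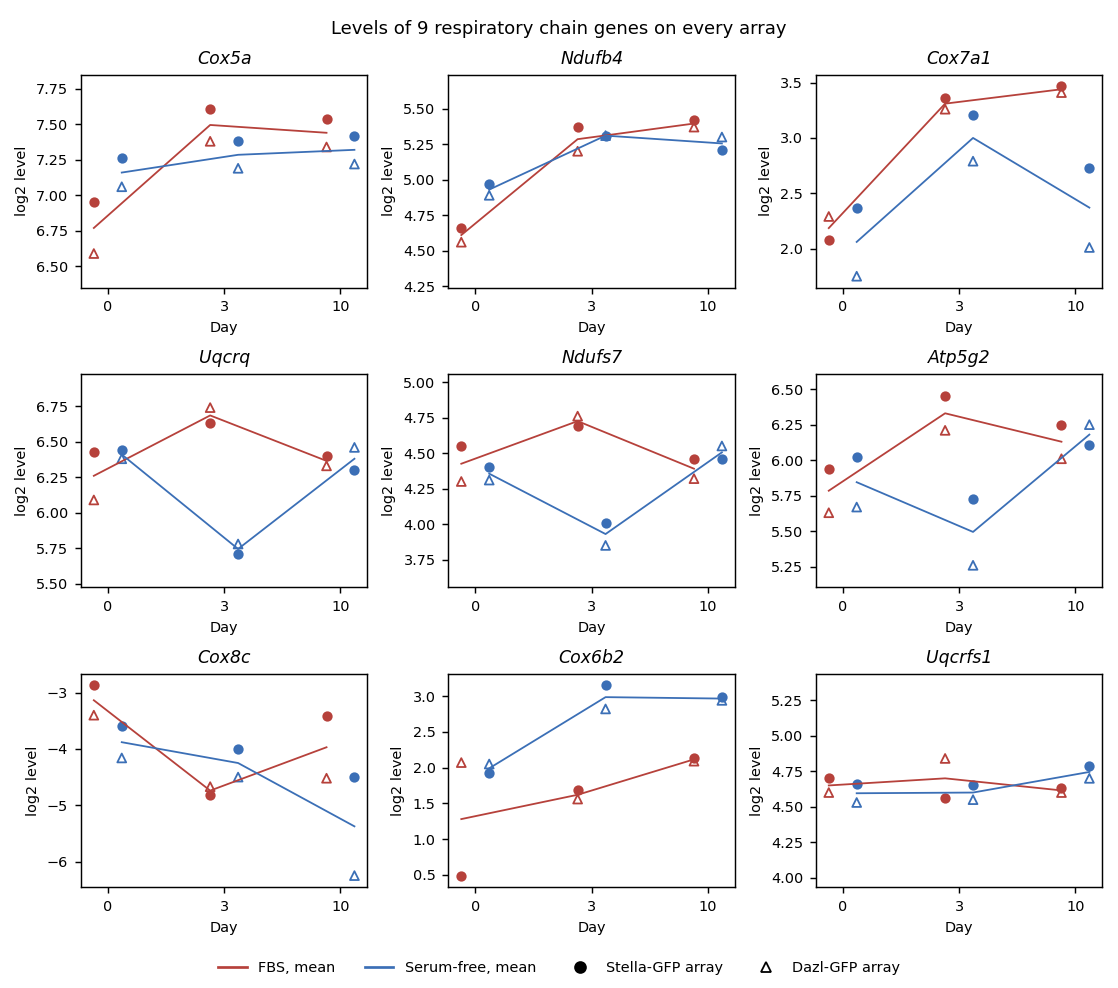
log2 level of 9 genes at days 0, 3 and 10 in FBS (red) and serum-free medium (blue), with filled circles for Stella-GFP, open triangles for Dazl-GFP and lines through the group means; each panel has its own log2 axis, and the days are evenly spaced. Cox5a, Ndufb4 and Cox7a1 lie higher at days 3 and 10 than at day 0 in FBS, Uqcrq and Ndufs7 are lowest on the serum-free day 3 arrays, Atp5g2 has its lowest group mean there, and Uqcrfs1 stays between 4.53 and 4.84.

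At days 0 and 10 no respiratory chain gene was called between the media. At day 0 limma called no member (4 had an unadjusted p under 0.05), against 1.89% of all genes, and the member median was 0.12. At day 10 it called none again (5 unadjusted), against 5.56% of all genes, with a median of 0.04 that the authors' table turned to -0.06. Uqcrq, by its brighter probe, was at 6.30 and 6.46 in serum-free medium at day 10, next to 6.40 and 6.33 in FBS. Atp5g2 was at 6.11 and 6.25, next to 6.25 and 6.01. For both genes the groups overlapped at day 10, as they did not at day 3. Both were taken from the day 3 calls, so the gap at day 3 follows from the choice and a smaller difference at another day is no test of a return. Cox7a1 differed by -1.07 at day 10 (adjusted p = 0.0501). Cox8c gave -1.41 (adjusted p = 0.0852), but it was above background on only 1 of the 2 serum-free day 10 arrays.

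Within serum-free medium, day 3 differed from day 0 in 2 members, 2.44% against 13.8% of all genes (5.89% higher and 7.93% lower). Cox7a1 rose by 0.94 (SE 0.25, adjusted p = 0.0450) and Uqcrq fell by 0.67 (SE 0.17, adjusted p = 0.0426). Each line had both of these arrays on 1 slide, and Cox7a1 was 0.84 higher in Stella-GFP and 1.04 higher in Dazl-GFP. The probes of Uqcrq disagreed: its other probe was called higher, by 0.82 (adjusted p = 0.0151), and the mean of both gave 0.08. Of the members 41 were above and 41 below 0, with a median of 0.00, which quantile normalization moved to 0.17 with 5 members called higher. Both calls were lost without either array of the FBS day 3, FBS day 10, serum-free day 0 or serum-free day 3 group, 1 was left without either serum-free day 10 array, and 4 members were called without either FBS day 0 array. Fibroblast markers were called lower at day 3 for 10 of 20 genes and higher for 1 (median -1.29), and their part in these values was not tested. At day 10 limma called no member against day 0 (7 unadjusted), with 5.21% of all genes called. The median was then 0.14 over members and 0.12 over all genes, and the authors' table gave -0.02 for the members.

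The change from day 0 was compared between the media directly. For day 3 limma called no member (22 had an unadjusted p under 0.05), against 1.62% of all genes, with a member median of -0.39 and an all-gene median of -0.13. The member median was -0.35 in Stella-GFP and -0.48 in Dazl-GFP, and it was 0.00 under quantile normalization. For day 10 it called none (2 unadjusted), against 0.0654% of all genes, with a member median of -0.10. This median was -0.25 without the FBS day 0 array of Stella-GFP, 0.01 without that of Dazl-GFP, -0.05 without the FBS day 10 array of Dazl-GFP and -0.34 in the authors' table. Between the lines limma called no member either (5 unadjusted), against 2.66% of all genes, with a median of -0.08 for Dazl-GFP minus Stella-GFP (0.01 under quantile normalization).

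**Figure D4:**
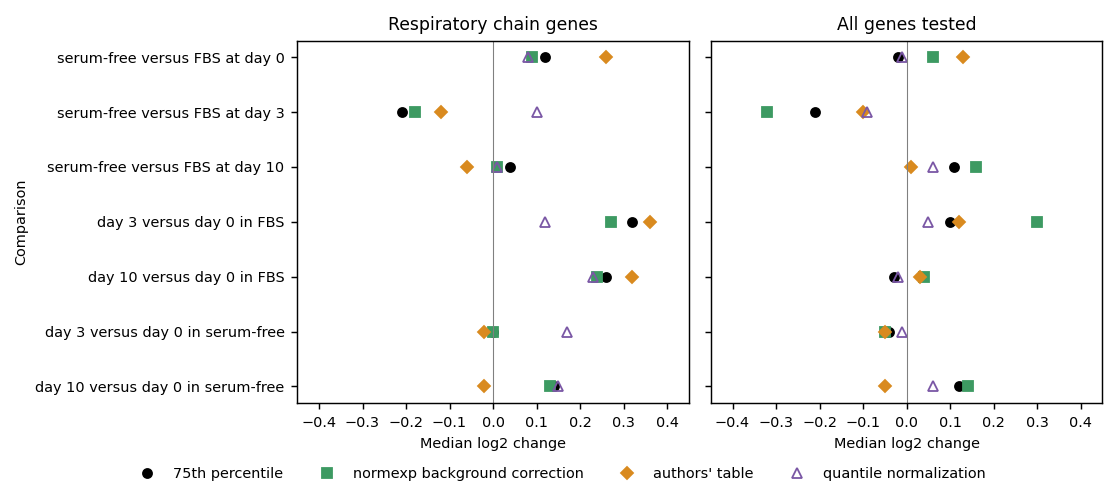
Median log2 change in 7 comparisons under 4 ways of scaling the arrays, for the 82 respiratory chain genes (left) and for all genes tested (right). The member medians of both FBS time comparisons stay above 0 under every scaling shown, and that of serum-free versus FBS at day 3 lies between -0.21 and -0.12 except for 0.10 under quantile normalization.

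The isoform genes of complex IV were followed one by one. Cox7a1 was at 2.08 and 2.29 in FBS at day 0, at 3.36 and 3.26 at day 3 and at 3.47 and 3.41 at day 10. In serum-free medium it was at 2.37 and 1.75, then 3.21 and 2.79, then 2.73 and 2.01. The FBS arrays of days 3 and 10 thus lay above every serum-free array, while the serum-free arrays of day 10 overlapped those of day 0. Cox8c, the testis isoform of subunit VIII, was dim (above background on 11 arrays) and in FBS lay at -2.87 and -3.40 at day 0, -4.81 and -4.67 at day 3 and -3.42 and -4.52 at day 10. Its fall of 1.60 at day 3 in FBS (SE 0.39, adjusted p = 0.0402) was not called with normexp, where the change was -0.29. In serum-free medium Cox8c was at -3.60 and -4.16, at -4.00 and -4.50, and at -4.50 and -6.25, the last of these not well above background.

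Cox6b2, the testis isoform of subunit VIb, showed the largest positive difference of any member between the media at day 3. It was at 1.68 and 1.56 in FBS and at 3.15 and 2.82 in serum-free medium, 1.37 higher (SE 0.42) without passing the threshold (adjusted p = 0.0543). These groups did not overlap, and neither did those of day 10, at 2.14 and 2.09 against 2.99 and 2.94 (0.85, adjusted p = 0.257). Neither difference was called. With 2 arrays on each side a gap alone says little, and the share of all genes with such a gap was not counted. At day 0 the FBS arrays were at 0.49 and 2.07, far apart from each other, and the serum-free arrays at 1.93 and 2.05. Cox4i2, the lung isoform of subunit IV, lay between -5.72 and -4.46 and Cox6a2, the heart and muscle isoform of subunit VIa, between -4.39 and -2.93, and neither was called in any comparison.

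Several further core genes were chosen for description. Among Ndufs1, Ndufv1, Sdha, Sdhb, Uqcrc1, Uqcrfs1, Cox4i1, Cox6c, Atp5a1 and Atp5b none was called in any comparison. Atp5b, the catalytic beta subunit of ATP synthase, was at 8.22 and 7.77 in FBS and 7.94 and 7.92 in serum-free medium at day 0. At day 3 it was at 7.96 and 8.27 against 7.89 and 7.97, and at day 10 at 8.02 and 8.19 against 8.22 and 7.77. Its groups overlapped at each day. Sdha, the flavoprotein of complex II, lay between 2.61 and 3.15 on all arrays. Ndufv1, the NADH-binding core subunit of complex I, differed by -0.46 between the media at day 3 (SE 0.14, adjusted p = 0.0544), close to the threshold as Uqcrc1 was.

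The promoters of the called genes were read to show which known activator motifs they hold. RefSeq (GRCm38.p6) gave 67 of the 82 members a promoter, 250 bases before to 50 bases after the start. Searched on both strands, the NRF1 motif CGCNTGCGC was in 19 of 67 (28.4%), against 11.2% of the tested genes with a promoter and 6.47% of all 27025 promoters. The ETS motif CCGGAAG, as GABP binds it, was in 16 (23.9%), against 14.7% and 9.12%, and the YY1 motif AAGATGGC in 9 (13.4%), against 3.98% and 2.88%. At least 1 of the 3 was in 37 of 67 (55.2%), against 26.3% and 16.5%, and in 11 of the 17 called members with a promoter. The SP1 motif GGGCGG was in 41.8%, below the 56.9% of tested genes and above the 35.9% of all promoters. Such matches describe letters in a window and are not binding sites. Printed 5′ to 3′ on the gene's own strand, with matches to the NRF1, ETS and YY1 motifs on either strand in capitals, are first the genes that were higher in FBS at both day 3 and day 10, and then, for each of complexes I, III and V, a gene that was lower in serum-free medium at day 3.
Ndufb4, chr16:37654319-37654618, - strand: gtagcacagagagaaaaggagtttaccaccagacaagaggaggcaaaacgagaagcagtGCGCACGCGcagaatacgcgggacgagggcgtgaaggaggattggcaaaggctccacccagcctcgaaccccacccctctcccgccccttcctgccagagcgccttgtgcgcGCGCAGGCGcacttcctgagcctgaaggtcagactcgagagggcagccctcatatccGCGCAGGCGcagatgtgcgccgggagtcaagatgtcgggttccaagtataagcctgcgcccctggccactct
Cox5a, chr9:57520982-57521281, + strand: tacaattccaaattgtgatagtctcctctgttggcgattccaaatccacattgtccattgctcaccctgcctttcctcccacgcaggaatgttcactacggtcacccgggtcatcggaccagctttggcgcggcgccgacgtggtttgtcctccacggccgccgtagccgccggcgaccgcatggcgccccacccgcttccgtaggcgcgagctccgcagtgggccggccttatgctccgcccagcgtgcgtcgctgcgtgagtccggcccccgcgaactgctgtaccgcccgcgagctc
Cox7a1, chr7:30183921-30184220, + strand: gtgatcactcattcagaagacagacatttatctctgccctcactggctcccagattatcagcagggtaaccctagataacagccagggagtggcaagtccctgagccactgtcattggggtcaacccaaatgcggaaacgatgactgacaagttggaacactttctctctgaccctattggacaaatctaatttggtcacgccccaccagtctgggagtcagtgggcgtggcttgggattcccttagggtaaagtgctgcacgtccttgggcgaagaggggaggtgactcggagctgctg
Ndufs7, chr10:80249199-80249498, + strand: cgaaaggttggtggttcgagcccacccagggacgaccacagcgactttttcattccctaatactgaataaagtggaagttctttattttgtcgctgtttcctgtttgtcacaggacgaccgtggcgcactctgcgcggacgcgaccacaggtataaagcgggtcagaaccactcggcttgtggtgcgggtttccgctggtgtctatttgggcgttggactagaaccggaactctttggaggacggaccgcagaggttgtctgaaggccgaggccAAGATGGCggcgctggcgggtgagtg
Uqcr, chr10:80406772-80407071, - strand: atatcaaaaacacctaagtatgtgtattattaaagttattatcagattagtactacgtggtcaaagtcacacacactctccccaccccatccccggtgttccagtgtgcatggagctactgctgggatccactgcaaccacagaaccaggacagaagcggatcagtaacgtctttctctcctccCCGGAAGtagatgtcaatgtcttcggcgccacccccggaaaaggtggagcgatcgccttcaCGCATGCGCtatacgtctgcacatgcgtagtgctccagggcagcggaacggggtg
Atp5g2, chr15:102670998-102671297, - strand: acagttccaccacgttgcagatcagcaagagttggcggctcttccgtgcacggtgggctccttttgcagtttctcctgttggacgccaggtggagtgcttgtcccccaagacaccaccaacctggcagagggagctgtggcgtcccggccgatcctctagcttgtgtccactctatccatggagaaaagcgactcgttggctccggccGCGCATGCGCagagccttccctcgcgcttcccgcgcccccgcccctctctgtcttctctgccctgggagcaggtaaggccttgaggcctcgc
Ndufb4 held 3 separate matches to the NRF1 motif and Atp5g2 held 1, where matches on both strands that overlap count as 1. Uqcr had the ETS and the NRF1 motif and Ndufs7 the YY1 motif. These letters were not in the windows of Cox5a and Cox7a1.

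Other mitochondrial and metabolic lists were set beside the chain genes. Of 14 regulators of respiratory chain transcription 1 (7.14%) was higher in serum-free medium at day 3, against 8.95% of all genes. It was Ppargc1b, a coactivator of the PGC-1 family, 1.61 higher (SE 0.26, adjusted p = 0.0074). Gabpb1, a GABP subunit, fell by 0.72 at day 3 and by 0.63 at day 10 in FBS. It was the only regulator called there (7.14%), against 5.23% and 5.33% of all genes called lower. Nrf1 was not called in any comparison. Of 78 genes of the mitochondrial ribosome, which translates the subunits of the mitochondrial genome, 24 (30.8%) were lower and none higher in serum-free medium at day 3, against 13.6% of all genes called lower. Their median was -0.50, against -0.21 over all genes (-0.43 to -0.33 under the other scalings, with 12 to 33 called lower). Mrpl23 differed by -1.49 and Mrpl20 by -1.27. Of 38 assembly factors and cytochromes c, 8 (21.1%) were lower at day 3, led by Taco1 (-1.45) and Atpaf1 (-1.36), and Cyct, the testis cytochrome c, was higher (1.17).

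Of 17 tricarboxylic acid cycle genes 2 (11.8%) were lower in serum-free medium at day 3, Mdh2 (-0.62) and Suclg2 (-0.65). Of all genes 13.6% were called lower. Idh2, the mitochondrial isocitrate dehydrogenase that uses NADP, was called higher than day 0 at day 3 (0.94) and day 10 (1.52) in FBS and at day 3 (1.28) and day 10 (1.16) in serum-free medium. The glycolysis list held 20 entries, with Pkm also under its older name Pkm2, and with glucose transporters and Pdk1 beside the enzymes. Of these, 4 rose (20%) and 1 fell in FBS at day 3, against 6.65% of all genes called higher. At day 10, 5 rose (25%) and 1 fell, against 7.56%. At day 10 in FBS Pfkp, a phosphofructokinase, rose by 2.16 and Hk1, a hexokinase, by 2.06. On that day Pdk1, a kinase that shuts off pyruvate dehydrogenase, had fallen by 2.21. In serum-free medium 3 entries rose (15%) at day 3 and 2 (10%) at day 10, and none fell. Of all genes 5.89% and 2.16% were called higher there. Pfkp rose in serum-free medium by 1.99 and 1.53 and Ldhb by 1.65 and 1.74, and Slc2a3 rose by 0.99 at day 3. In the comparison of media at day 3, 2 of the 20 entries were higher and 2 lower (10% each), against 8.95% and 13.6% of all genes. Pfkp (1.49) and Pfkm (1.06), both phosphofructokinases, were higher. Slc2a1, a glucose transporter, and Pgam1, a phosphoglycerate mutase, were lower (-1.08 and -0.71). At day 10 between the media 1 entry was higher and 1 lower (5% each), against 1.98% and 3.58% of all genes. Pfkm was still higher (0.97, adjusted p = 0.0432) and Hk1 was lower (-1.27, adjusted p = 0.0483). Pfkp was at -0.82 on that day and not called (adjusted p = 0.145).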

How the data were processed

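Total RNA was hybridised to Agilent one-colour arrays (Cy3). Per the file headers, Feature Extraction 9.1.3.1 made the deposited spot intensity values by subtracting local background and detrending, with marks for spots well above background. The authors also deposited a series table, whose values are a ratio: by comparison with the scanner files each is the background-subtracted signal over the array median. Normalization beyond this is not given in the sources used here.

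Each of 41174 probes was averaged over its spots as log2 intensity minus the array's 75th percentile. Names came from RefSeq accessions for 22951 probes, from the authors' table for 7903 and otherwise from the scanner file. Where a gene had several probes, as 25 members did, its brightest by mean was used. Genes above background on at least 2 arrays were tested, 21394 of 27357. R 4.3.3 with limma 3.58.1 fitted the 6 groups plus the cell line to all 12 arrays (5 residual and 2.53 prior degrees of freedom), and Benjamini-Hochberg adjusted p-values were called at 0.05. Replicate number 1 is always Stella-GFP and number 2 always Dazl-GFP, so the numbers pair arrays of the same line. The difference between the lines, set against that of another group for each of 15 group pairs, correlated at -0.0492 to 0.569 (median 0.156, above 0.1 in 13). The number of arrays, 2 per group, limits the precision. The fit was tested on simulated data of the day 3 comparison between media.

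Genes named are the called members (up to 8 in each direction per comparison, and for the day 3 comparison of media all 13), fixed lists of core and isoform genes, and the leading genes of other lists. The values of 1 member are not reported here. Cox6b1, Ndufs3, Ndufb3, Uqcrb and Atp5e were named after their values were seen. The members and lists were chosen with earlier results of these data known. Alternatives were quantile normalization, normexp (offset 50, with local backgrounds above 10 times the median replaced), the table of the authors, dropping the filter, keeping genes detected on all 12 arrays, the mean over probes, no replicate block, the slide as a block and leaving out each array. Figures were drawn with matplotlib 3.10.9.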

Additional observations from a re-analysis of the deposited data

Results flagged for a closer look

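The median change of the respiratory chain genes between days 0 and 3 in serum-free medium was -0.09 in Stella-GFP and 0.01 in Dazl-GFP, opposite signs in the 2 lines. The difference between the lines was not tested, and each value comes from 1 array per day.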

How the results depend on the processing

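Every group holds 2 arrays and most calls lay close to the threshold, so the counts of called members moved with the processing. At day 3 between the media the 13 calls became 7 with quantile normalization, 26 with normexp, 4 in the authors' table, 8 without a filter, 20 among genes above background on all 12 arrays and 1 with the slide as a block, and 0 to 21 when an array was left out. At day 10 between the media normexp, the authors' table and the all-array filter each gave 1 call, and leaving out arrays gave 0 to 2. The same gave 0 to 1 at day 0 and 0 to 1 for day 10 in serum-free medium. For day 3 in serum-free medium the 2 calls became 5 with quantile normalization, 5 with normexp, 1 in the authors' table, 0 without a filter, 4 with the all-array filter, 1 with no replicate block and 0 with the slide block (0 to 4 without an array). For day 3 in FBS the 10 calls became 2 with quantile normalization, 19 with normexp, 5 in the authors' table, 4 with no replicate block and 0 with the slide block (0 to 10 without an array). For day 10 in FBS the 4 calls became 8 with normexp, 2 with no replicate block and 0 with the slide block (0 to 3 without an array). The day 3 response had 9 calls with normexp and 3 with the all-array filter (0 to 5 without an array), and the line comparison had 1 with normexp. Of 29 calls 12 remained with quantile normalization, 12 in the authors' table, 16 with no replicate block and 28 with normexp. Member medians changed sign between media at day 3 (0.10, quantile) and at day 10 (-0.06, authors' table). They also did so for day 10 in serum-free medium (-0.02, authors' table) and for the line (0.01, quantile). For the day 10 response the median was 0.01 without the FBS day 0 array of Dazl-GFP. Other medians came to 0.00. At day 0 between media this was without the FBS array of Dazl-GFP (0.00 to 0.23 over arrays left out). At day 10 between media it was without the FBS array of Stella-GFP (0.00 to 0.06 over arrays left out). For the day 3 response it was under quantile normalization. Among genes the mean over probes turned Cox5a at day 3 between media to 0.81 (adjusted p = 0.0304) and Uqcrq at day 3 in serum-free medium to 0.08, and normexp turned Cox8b at day 3 in FBS to 0.53. The cause was not tested.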

Other observations

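Ndufs3, a core subunit of complex I that carries no metal cluster, Ndufb3, an accessory subunit, and Cox6b1, the general isoform of subunit VIb of complex IV, differed widely between the 2 arrays of some groups. Ndufs3 was at 2.54 on the FBS day 3 array of Stella-GFP and at 4.32 on that of Dazl-GFP, and in serum-free medium at day 10 at 4.15 and 2.99. Cox6b1 was at 0.00 and 1.15 and at 1.73 and 0.60 on the same arrays, and Ndufb3 at 3.12 and 4.44 and at 4.27 and 3.58. All 3 genes, and Atp5e, had their lowest levels on the same 4 arrays. In Stella-GFP these were the FBS arrays of days 3 and 10 and the serum-free array of day 0. In Dazl-GFP it was the serum-free day 10 array. For Atp5e the means of the 4 and of the other 8 arrays differed by 0.27. Its sets nearly touched, with 5.53 the highest of the 4 and 5.55 the lowest of the other 8. Across the 4 arrays Ndufs3 was at 2.54 to 3.46 and on the other 8 at 3.64 to 4.33, and Cox6b1 at 0.00 to 0.72 and 1.15 to 1.80. The 4 arrays were picked after these levels were seen, so counts of the pattern are no test of the members as a set. The pattern holds for 4 of 82 members (4.88%) and for 174 of all genes tested (0.813%). The same 4 arrays had the lowest shares of spots well above background, 64.0% to 68.6% against 68.8% to 74.4%, and the part of that in these levels was not tested. None of these genes was called in a comparison with the settings used above, and with the slide as a block Cox6b1 was called higher in serum-free medium at day 3.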
